A study of Mus musculus with 15 samples.

Results

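Splicing of 8 genes of the clathrin coat and of vesicle traffic was examined in mouse skeletal muscle in which an expanded CUG repeat RNA had been induced. The genes were Cltc, Clta, Cltb, Ap1b1, Picalm, Trip10, Snap23 and Tmed2. All events listed for them in the deposited splicing table were taken, by symbol for events named by coordinates and by gene ID for alternative first and last exons. This gave 35 of 39123 events, of which 34 had a value in every library. The set was chosen by a measured value: an earlier reading of the same data had singled out a 21-nt exon of Ap1b1 for its difference in inclusion between induced and control muscle. That contrast is therefore given for the 8 genes as a description, with no test.

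Poly-A selected RNA of 15 mouse muscles had been sequenced to study myotonic dystrophy type 1. In this disease CUG repeat RNA binds and sequesters muscleblind-like (MBNL) splicing factors. Induced mice carried TREDT960I-HOM and MDAFrtTA and received doxycycline (dox) from postnatal day 1, no-dox mice carried the same pair of transgenes without dox, and dox-control mice carried TREDT960I-HOM alone with dox, so TREDT960I-HOM was common to every animal. Each age (6, 12 and 20 weeks) had 2 induced, 2 no-dox and 1 dox-control library, which gives 6 induced libraries and 9 controls (6 no dox and 3 dox control). Gastrocnemius was the source of both no-dox libraries of week 6, no dox replicate 1 of week 12, every dox control, replicate 1 of the induced pair at each week and also replicate 2 of week 12, and the other libraries came from quadriceps. Week 6 no dox replicate 2 was male and the rest were female. The promoter that drives MDAFrtTA is not given in the labels.

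The measure was the percent spliced in (PSI), deposited as a fraction of 0 to 1 with 2 decimals. For a skipped exon it is taken as the share of transcripts that include the exon. For the other kinds of event, the form to which PSI refers is not stated in the table, and only the PSI is given. Between 34416 and 36959 events had a value in a given library. Read counts were not used here, so the depth behind a single PSI is unknown. The table holds no expression levels, so neither the transgene nor the makeup of the tissue could be checked against marker genes. In such bulk muscle, a change of splicing within fibres and a change in the mix of cells cannot be told apart.

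Clathrin is a cage of heavy and light chains that forms on membranes and coats budding vesicles at the cell surface and at the trans-Golgi network. Adaptor proteins link the cage to membrane and cargo, F-BAR proteins such as the product of Trip10 bend membrane, SNARE proteins such as the product of Snap23 fuse vesicles with their target, and p24 proteins such as the product of Tmed2 select cargo early in secretion. In mice, exons of Cltc, Snap23, Tmed2 and Trip10 are known to be spliced differently in newborn and adult muscle, and these genes have been linked to the organisation of transverse tubules in muscle fibres.

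The 34 events measured in every library fell into a fixed and a variable set. In 12 events PSI was 0.05 or less in every library and in 3 it was 0.95 or more, which left 19 events in between. Of the 34, only the 21-nt exon of Ap1b1 had induced and control libraries that did not overlap, a share of 2.94% beside 0.125% of the 31267 events measured in every library. Of all events, 0.0800% had every induced library above every control, and 0.0640% also differed by at least 0.1. A difference in mean PSI of at least 0.1 was present in 4 of 34 events (11.8%), beside 3.94% of all events. It was higher in induced muscle for the Ap1b1 exon and for a 36-nt exon of Clta set between 54-nt and 446-nt exons. Between 112-nt and 446-nt exons the same Clta exon differed by 0.017. PSI was lower for an alternative first exon of Picalm and for a tandem UTR event listed under Ap1b1. The other 30 events differed by less than 0.1, and 29 by less than 0.05. The median difference was 0.0 over the 34 events and 0.0 over all events. As the members were picked with this contrast known, nothing is read from these shares.

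**Figure D1:**
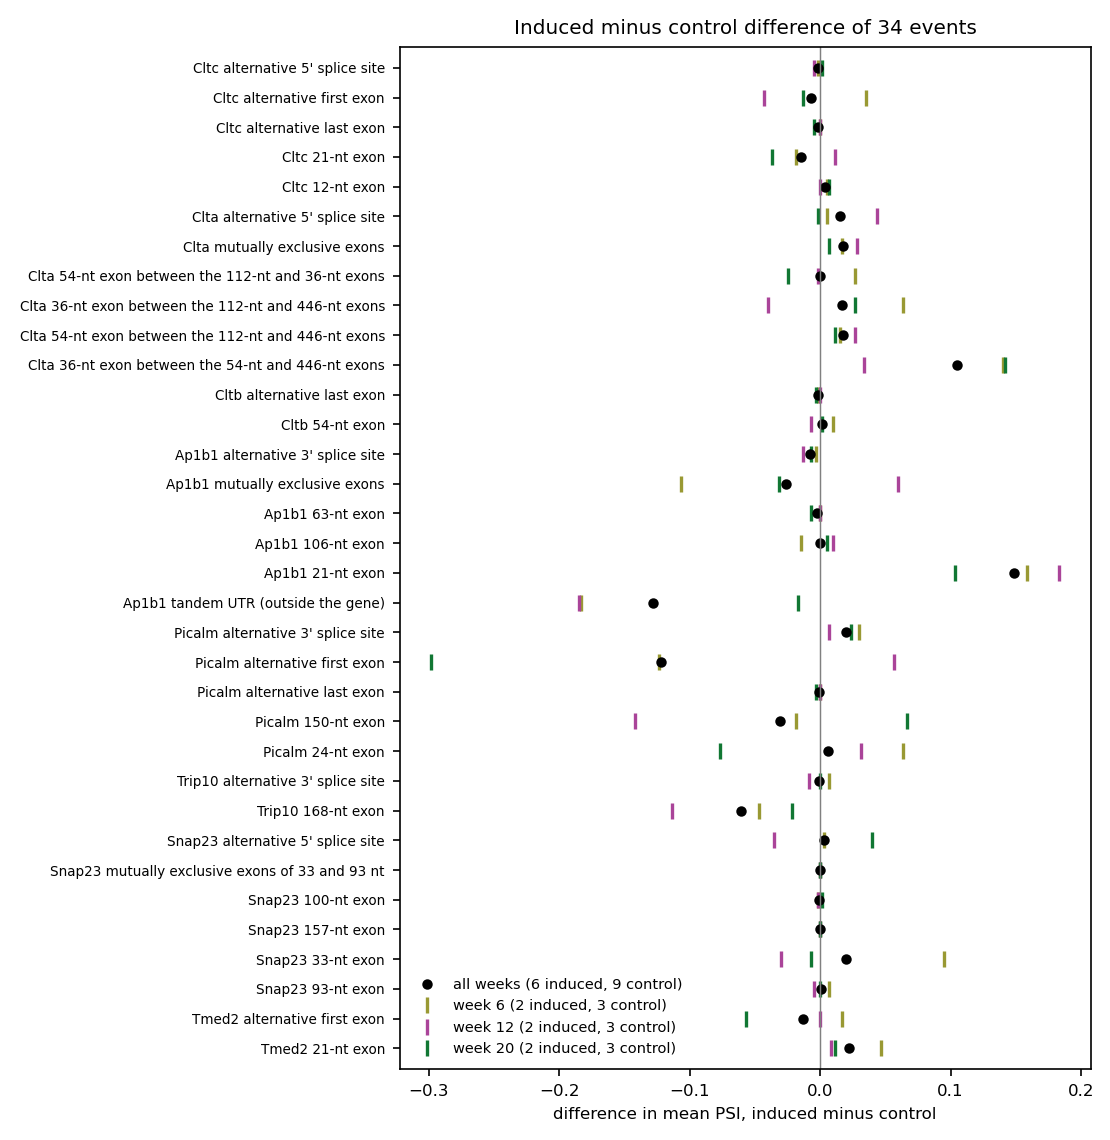
Difference in mean PSI between induced and control libraries (x axis, fraction) for the 34 events measured in every library (y axis), over all weeks as black points and within each week as coloured ticks. The 21-nt exon of Ap1b1 lies farthest to the right at 0.148, with all 3 weekly ticks above 0.1, and most other events lie close to 0.

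Ap1b1 encodes the large beta subunit of AP-1, the adaptor that recruits clathrin at the trans-Golgi network and endosomes. Its 21-nt exon (mm10 chromosome 11, 5033242 to 5033262, plus strand) has the length of 7 codons. At week 6 inclusion was 0.22 and 0.37 in induced replicates 1 and 2, against 0.11 and 0.14 in the no-dox libraries and 0.16 in the dox control. At week 12 it was 0.29 and 0.31 in the induced libraries, against 0.13 and 0.09 without dox and 0.13 in the dox control. At week 20 it was 0.23 and 0.25 in the induced libraries, against 0.11 and 0.14 without dox and 0.16 in the dox control.

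Every induced library thus lay above every control, at each age as well as over all. The mean was 0.278 ± 0.057 (SD, n = 6) under induction and 0.130 ± 0.023 (SD, n = 9) in controls, a difference of 0.148. By week the difference was 0.158, 0.183 and 0.103 at 6, 12 and 20 weeks. Whether the induced difference varied with age was tested with a limma F test, and its adjusted p over all events was 1.0. The difference was 0.124 among gastrocnemius libraries and 0.197 among quadriceps libraries. The induced quadriceps libraries were at 0.37 and 0.25 and the control ones lay between 0.09 and 0.14. Against the no-dox libraries alone it was 0.158, and against the dox controls alone it was 0.128.

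Within the controls the exon varied little. It was at 0.120 ± 0.020 (SD, n = 6) without dox and 0.150 ± 0.017 (SD, n = 3) in dox controls, and the fitted difference of 0.04 (SE 0.03) was not called by limma (adjusted p = 1.0). Among controls the mean was 0.113 in quadriceps (n = 3) and 0.138 in gastrocnemius (n = 6). Induced libraries went the other way, with means of 0.31 and 0.26. The fitted difference of quadriceps minus gastrocnemius, taken over all 15 libraries, was 0.015 (SE 0.03, limma adjusted p = 0.954). That between control muscle of 20 and 6 weeks was -0.01 (SE 0.04, limma adjusted p = 1.0).

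**Figure D2:**
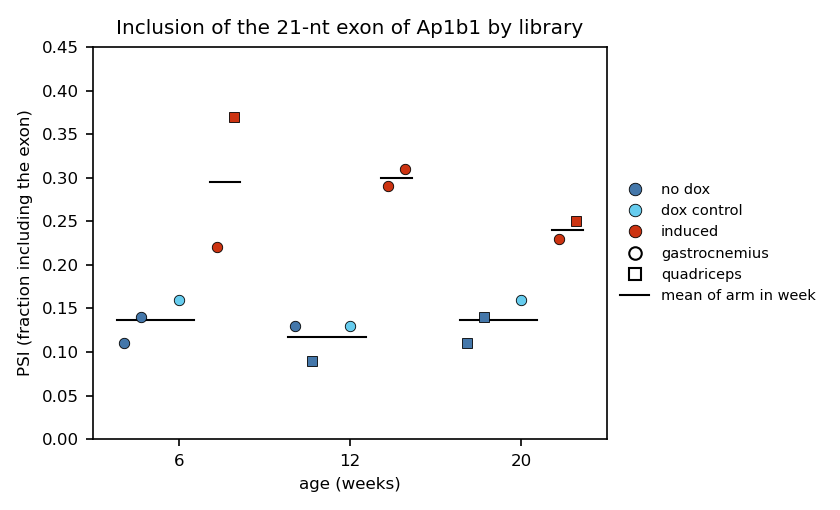
Inclusion of the 21-nt exon of Ap1b1 (y axis, PSI as a fraction) in each of 15 libraries by age in weeks (x axis), coloured by arm and shaped by muscle, with a line at the mean of induced or control libraries of each week. The 6 induced libraries lie between 0.22 and 0.37 and the 9 controls between 0.09 and 0.16.

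The other events of Ap1b1 did not share this separation. The 63-nt exon (chromosome 11, 5009530 to 5009592) and the 106-nt exon (5012882 to 5012987) were included at 0.97 or more and 0.95 or more in all 15 libraries. PSI of the event that treats these exons as mutually exclusive was 0.655 ± 0.082 (SD, n = 6) under induction and 0.681 ± 0.053 (SD, n = 9) in controls. As each exon was in nearly all transcripts, this PSI cannot be read as a choice between them. A pair of alternative 3' splice sites 81 nt apart had PSI of 0.95 to 0.99. A tandem UTR event carries the symbol Ap1b1 in the deposited table, but its position (chromosome 11, 4793187 to 4794204) lies outside Ap1b1 and within Nf2. Its PSI was 0.282 ± 0.114 (SD, n = 6) under induction and 0.410 ± 0.109 (SD, n = 9) in controls, and the arms overlapped. Under induction it was 0.22 and 0.26 at week 6, then 0.23 and 0.30 at week 12, then 0.18 and 0.50 at week 20, and the controls ran from 0.23 to 0.55 with a median of 0.41.

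The clathrin heavy chain gene Cltc has a 21-nt exon near its 3' end (chromosome 11, 86701061 to 86701081, minus strand). Under induction its inclusion was 0.74 and 0.61 at week 6, then 0.74 and 0.75 at week 12, then 0.70 and 0.78 at week 20. Controls had 0.70, 0.64 and 0.74 at week 6, then 0.75, 0.74 and 0.71 at week 12, then 0.79, 0.71 and 0.83 at week 20, in the order of no dox replicates 1 and 2 and the dox control. The arms overlapped at every age, with means of 0.720 ± 0.060 (SD, n = 6) and 0.734 ± 0.055 (SD, n = 9). The difference of -0.014 became 0.008 without week 6 induced replicate 2. A 12-nt exon of Cltc (86713425 to 86713436), an alternative 5' splice site and an alternative last exon had PSI of 0.03 or less in every library. PSI of the alternative first exon of Cltc was 0.355 ± 0.051 under induction and 0.362 ± 0.049 in controls.

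Clta encodes clathrin light chain a, which lies along the heavy chain and regulates assembly of the cage. Its transcripts can carry a 54-nt exon (chromosome 4, 44030215 to 44030268, plus strand) and a 36-nt exon (44031400 to 44031435), and inserts of the light chains are known from brain. The table lists 4 skipped exon events and 1 mutually exclusive event for these exons, and they share reads. Where the 36-nt exon lay between its 112-nt and 446-nt neighbours, inclusion was 0.513 ± 0.052 (SD, n = 6) under induction and 0.497 ± 0.073 (SD, n = 9) in controls. Under induction the values were 0.49 and 0.51 at week 6, then 0.55 and 0.43 at week 12, then 0.52 and 0.58 at week 20. Controls had 0.42, 0.44 and 0.45 at week 6, then 0.57, 0.47 and 0.55 at week 12, then 0.48, 0.45 and 0.64 at week 20, in the order of no dox replicates 1 and 2 and the dox control. At week 6 both induced libraries lay above all controls, and at weeks 12 and 20 the arms overlapped.

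In the event that sets the 36-nt exon between the 54-nt and 446-nt exons, its PSI was 0.695 ± 0.094 (SD, n = 6) under induction. In controls it was 0.590 ± 0.087 (SD, n = 9). Under induction it was at 0.70 and 0.74 at week 6, then 0.68 and 0.52 at week 12, then 0.79 and 0.74 at week 20. Control libraries were at 0.60, 0.62 and 0.52 at week 6, then 0.51, 0.50 and 0.69 at week 12, then 0.60, 0.52 and 0.75 at week 20, in the order of no dox replicates 1 and 2 and the dox control. At week 6 the arms did not overlap and at weeks 12 and 20 they did, with the dox control as the highest control of both. The difference of 0.105 was 0.0417 against the dox controls alone and 0.20 among quadriceps libraries. The 54-nt exon was rare, with PSI of 0 to 0.09 in both of its own events. Reads of the 36-nt exon can also come from transcripts without the 54-nt exon. The value therefore cannot be assigned to transcripts that carry both exons. Alternative 5' splice sites of Clta, 6 nt apart, had PSI of 0.883 ± 0.034 under induction and 0.868 ± 0.074 in controls.

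Low values were also found for the other events of these exons. PSI of the 54-nt exon between the 112-nt and 446-nt exons was 0.027 ± 0.012 (SD, n = 6) under induction and 0.009 ± 0.009 (SD, n = 9) in controls, with 2 of 6 induced libraries above all controls. PSI of the mutually exclusive pair, whose form the table does not state, was 0.028 ± 0.015 under induction and 0.011 ± 0.008 in controls, with 3 of 6 above all controls. In Cltb, which encodes light chain b, the 54-nt exon (chromosome 13, 54597026 to 54597079, minus strand) was at 0 or 0.01 in every library, and so was the alternative last exon. Muscle of all 3 arms therefore had Cltb transcripts almost wholly without this insert.

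**Figure D3:**
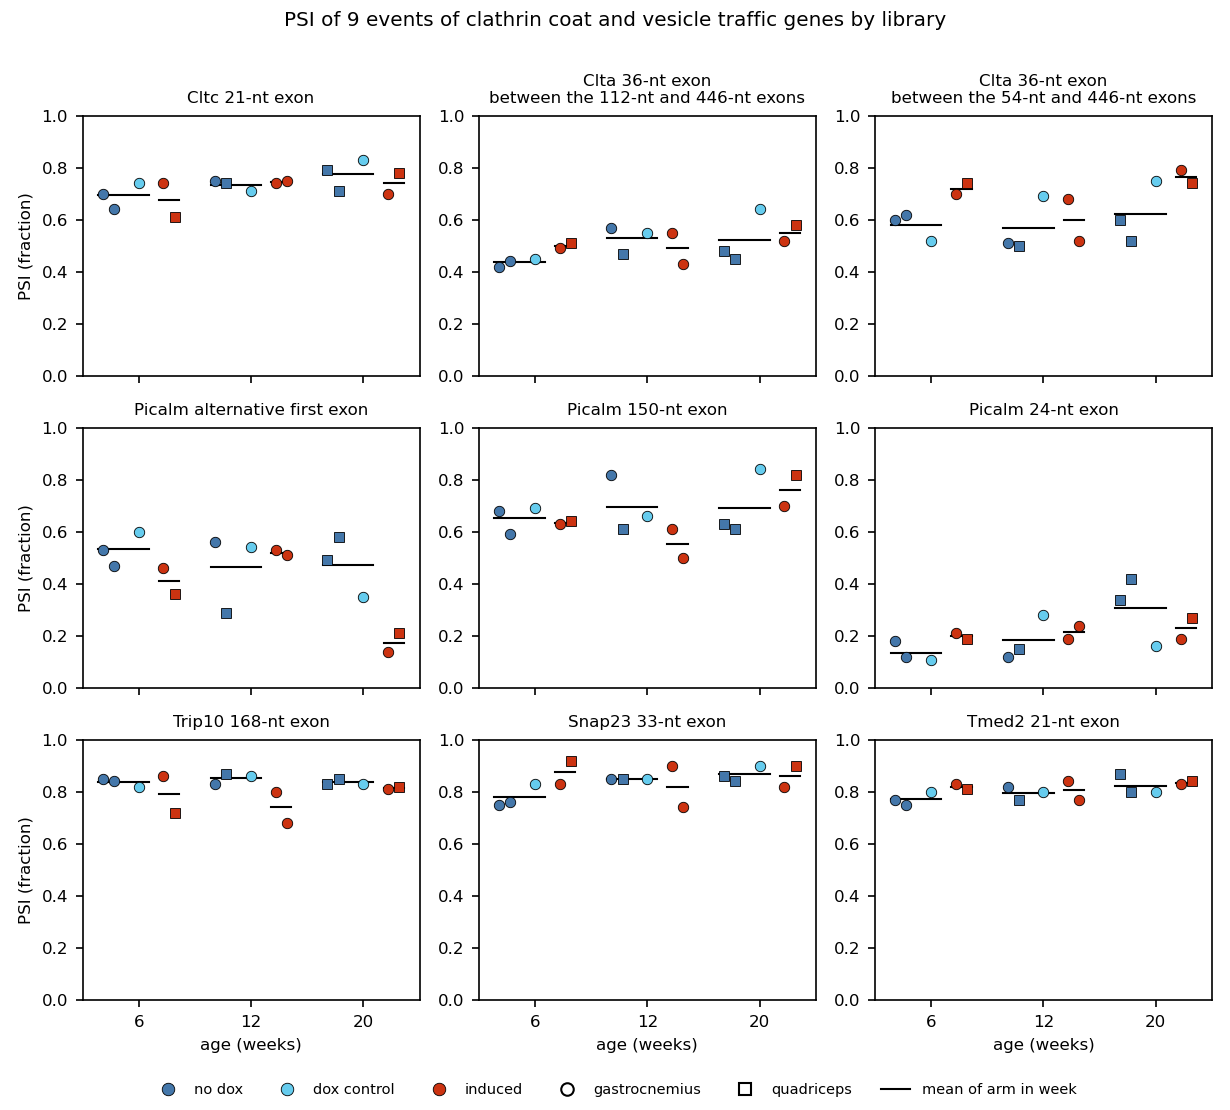
PSI as a fraction (y axes) of 9 events in each of 15 libraries by age in weeks (x axes), coloured by arm and shaped by muscle, with lines at the mean of induced or control libraries of each week. Trip10 lies lower in the induced libraries of weeks 12 and 20, at week 20 by little. The first exon of Picalm lies lower in those of weeks 6 and 20, with 0.14 and 0.21 at week 20. In the remaining panels the arms overlap at weeks 12 and 20.

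Picalm encodes an adaptor of the cell surface that senses membrane curvature and brings clathrin and SNARE proteins to coated pits. PSI of its alternative first exon under induction was 0.46 and 0.36 at week 6, then 0.53 and 0.51 at week 12, then 0.14 and 0.21 at week 20. Control libraries were at 0.53, 0.47 and 0.60 at week 6, then 0.56, 0.29 and 0.54 at week 12, then 0.49, 0.58 and 0.35 at week 20, in the order of no dox replicates 1 and 2 and the dox control. The induced libraries of weeks 6 and 20 lay below the controls of the same week and those of week 12 lay among them. The mean was 0.368 ± 0.162 (SD, n = 6) under induction and 0.490 ± 0.106 (SD, n = 9) in controls, with weekly differences of -0.123, 0.057 and -0.298. In the limma F test of variation with age its adjusted p over all events was 1.0, so the contrast between ages was not called. Without week 20 induced replicate 1 the overall difference was -0.076.

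For internal exons of Picalm the arms overlapped over all ages. A 150-nt exon (chromosome 7, 90182219 to 90182368, plus strand) was at 0.650 ± 0.106 (SD, n = 6) under induction and 0.681 ± 0.091 (SD, n = 9) in controls. The induced libraries were at 0.63, 0.64, 0.61, 0.50, 0.70 and 0.82 from week 6 replicate 1 to week 20 replicate 2. Controls had 0.68, 0.59 and 0.69 at week 6, then 0.82, 0.61 and 0.66 at week 12, then 0.63, 0.61 and 0.84 at week 20, in the order used above. The weekly differences were -0.018, -0.142 and 0.067. The difference was -0.103 in gastrocnemius and 0.113 in quadriceps libraries, where 2 induced and 3 control libraries were compared. A 24-nt exon (90194273 to 90194296) was at 0.21, 0.19, 0.19, 0.24, 0.19 and 0.27 in the induced libraries in the same order. Controls had 0.18, 0.12 and 0.11 at week 6, then 0.12, 0.15 and 0.28 at week 12, then 0.34, 0.42 and 0.16 at week 20. The induced libraries of week 6 lay above the controls of that week, and at weeks 12 and 20 the arms overlapped. Its highest values, 0.34 and 0.42, were those of the no-dox libraries of week 20, both quadriceps. The fitted difference between control muscle of 20 and 6 weeks was 0.13 (SE 0.07), which limma did not call (adjusted p = 0.963). PSI of alternative 3' splice sites 15 nt apart was 0.310 ± 0.028 under induction and 0.290 ± 0.037 in controls, and that of an alternative last exon was 0.01 or less in every library.

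Trip10 encodes CIP4, an F-BAR protein that bends membrane and links it to actin through Cdc42. Its 168-nt exon (chromosome 17, 57256860 to 57257027, plus strand) was included under induction at 0.86 and 0.72 at week 6, then 0.80 and 0.68 at week 12, then 0.81 and 0.82 at week 20. Controls had 0.85, 0.84 and 0.82 at week 6, then 0.83, 0.87 and 0.86 at week 12, then 0.83, 0.85 and 0.83 at week 20. Of 6 induced libraries 4 lay below every control, and week 6 replicate 1 and week 20 replicate 2 lay within the control range. Within weeks 12 and 20 the induced libraries lay below the controls of the same week, and at week 6 the arms overlapped. The mean was 0.782 ± 0.068 (SD, n = 6) under induction and 0.842 ± 0.016 (SD, n = 9) in controls. The difference of -0.061 was made up of -0.047, -0.113 and -0.022 at 6, 12 and 20 weeks, and was -0.040 without week 12 induced replicate 2. It was -0.051 among gastrocnemius libraries and -0.080 among quadriceps libraries. A pair of alternative 3' splice sites of a later Trip10 exon, 3 nt apart, had PSI of 0.878 ± 0.020 under induction and 0.879 ± 0.030 in controls.

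Snap23 encodes a SNARE protein that fuses vesicles with the plasma membrane outside the nervous system, including those that carry the glucose transporter of muscle and fat. Its 33-nt exon (chromosome 2, 120590663 to 120590695, plus strand) under induction was at 0.83 and 0.92 at week 6, then 0.90 and 0.74 at week 12, then 0.82 and 0.90 at week 20. Controls were at 0.75, 0.76 and 0.83 at week 6, then 0.85 in all 3 at week 12, then 0.86, 0.84 and 0.90 at week 20. The arms overlapped at each age, with means of 0.852 ± 0.068 (SD, n = 6) and 0.832 ± 0.048 (SD, n = 9). Exons of 93, 100 and 157 nt of Snap23, and the event that sets its 33-nt and 93-nt exons against each other, had PSI of 0.01 or less in every library. Alternative 5' splice sites 45 nt apart had PSI of 0.91 to 0.98. Mutually exclusive exons of 157 and 100 nt had PSI of 0.19 to 0.60 and no value in week 20 induced replicate 2, and this was the 1 event not tested. Both exons were at 0.01 or less as skipped exons, so this PSI concerns few transcripts.

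Tmed2 encodes a p24 protein that cycles between the endoplasmic reticulum and the Golgi apparatus as a cargo receptor. Its 21-nt exon (chromosome 5, 124543487 to 124543507, plus strand) under induction was at 0.83 and 0.81 at week 6, then 0.84 and 0.77 at week 12, then 0.83 and 0.84 at week 20. Controls had 0.77, 0.75 and 0.80 at week 6, then 0.82, 0.77 and 0.80 at week 12, then 0.87, 0.80 and 0.80 at week 20. The means were 0.820 ± 0.027 (SD, n = 6) and 0.798 ± 0.035 (SD, n = 9), and at week 6 alone the arms did not overlap. PSI of its alternative first exon was 0.123 ± 0.027 under induction and 0.137 ± 0.040 in controls.

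In control muscle the variable exons thus had an order of mean inclusion from Ap1b1 (0.130), the 24-nt exon of Picalm (0.209) and the 36-nt exon of Clta (0.497 and 0.590) to the 150-nt exon of Picalm (0.681) and the exons of Cltc (0.734), Tmed2 (0.798), Snap23 (0.832) and Trip10 (0.842). Neighbours in this order overlapped or touched in range. The 4 exons of highest inclusion were those of the genes known for a switch between newborn and adult muscle. Exon lengths were then described. The length of the Ap1b1 exon was named when the genes were chosen, and the limit of 36 nt is that of the Clta exon, so nothing is read from these shares. All 9 skipped exon events of the 8 genes with a control mean of 0.05 to 0.95 had a length that is a multiple of 3, beside 48.9% of 6123 other such events, and 7 of 9 were 36 nt or shorter, beside 7.09%. The 9 events stand for 8 exons, since the 36-nt exon of Clta is in 2 of them. Of the 9 with a mean outside these limits, 6 (66.7%) had a length that is a multiple of 3, beside 43.7% of 3153 others, and the exceptions were the 106-nt exon of Ap1b1 and the 100-nt and 157-nt exons of Snap23.

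**Figure D4:**
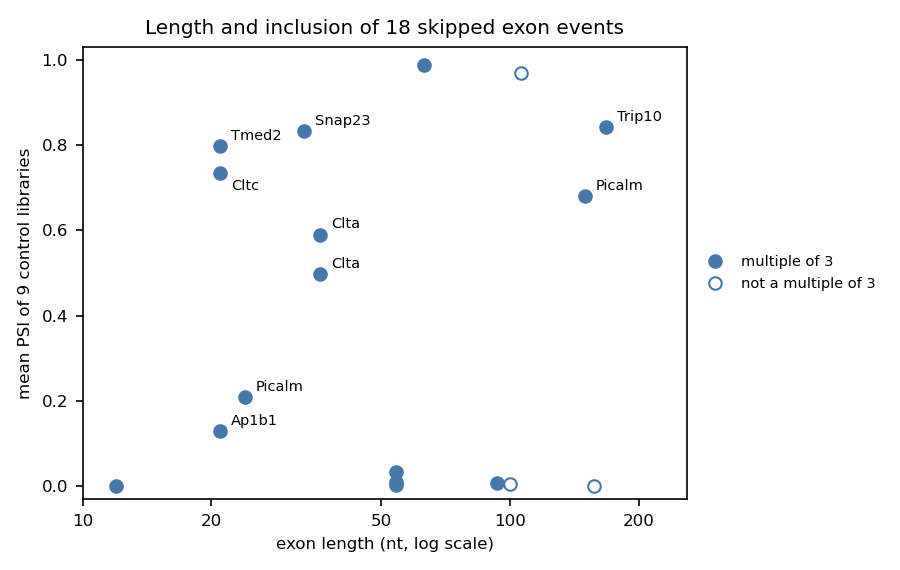
Mean PSI in the 9 control libraries (y axis, fraction) against exon length in nt (x axis, log scale) for the 18 skipped exon events of the 8 genes. Filled points are multiples of 3, and every exon of intermediate inclusion, named by its gene, is filled.

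Muscle, age, the kind of control and the variation of the induced difference with age were then tested across all 31267 events with limma. For each of them 0 of the 34 events were called, on the PSI or on the logit scale. The last uses the arms by which the genes were chosen, and the kind of control splits the control arm. The comparison of quadriceps with gastrocnemius called 0.00320% of all events. Before adjustment, 2 of 34 events had p under 0.05 beside 7.54% of all events. Both were in Ap1b1 and were named after their values were seen. They were the mutually exclusive exons, with a fitted difference of -0.098 (SE 0.033, limma adjusted p = 0.617), and the 106-nt exon, with -0.013 (SE 0.0057, limma adjusted p = 0.652).

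The comparison of control muscle of 20 and 6 weeks called 0% of all events, and p before adjustment was under 0.05 for 0 of 34 events beside 5.32% of all. Every control of week 6 was gastrocnemius, and at week 20 only the dox control was, so this comparison leans on the muscle term. The smallest limma adjusted p among the 34 events was 0.952 with that term and 0.635 without it. Among the larger fitted differences of age were those of the 24-nt exon of Picalm, given above, and of the 36-nt exon of Clta between its 112-nt and 446-nt neighbours, at 0.126 (SE 0.060, limma adjusted p = 0.952). For the 21-nt exon of Cltc it was 0.104 (SE 0.052, limma adjusted p = 0.960). The comparison of dox controls with no dox also called 0% of all events, and p before adjustment was under 0.05 for 0 of 34 events beside 3.58% of all. For the 33-nt exon of Snap23 the fitted difference was 0.077 (SE 0.037, limma adjusted p = 1.0). The test of variation of the induced difference with age called 0.00320% of all events, and before adjustment 1 of 34 events, the alternative 5' splice sites of Snap23, had p under 0.05 beside 4.14% of all.

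Other genes of the same machinery were taken from a list of 154, which leaves out the 8 genes, and 110 of them had 535 events measured in every library. The list was chosen with earlier results of these data known, so its p-values may not be independent of that choice. For induced against control muscle limma called 0 of these in either direction, on the PSI or the logit scale, beside 0.00640% of all events. On the logit scale the smallest limma adjusted p among them was 0.033, but that event differed by less than 0.1. On the PSI scale an unadjusted p under 0.05 was found for 42 (7.85%), beside 6.26% of all events. Of the 42, 23 were higher and 19 lower in induced muscle. By role these were 7 of 60 events of adaptor complexes, 8 of 132 of coated pit assembly, 13 of 160 of membrane scission, bending and uncoating, 8 of 106 of SNARE fusion, and 6 of 77 of p24 proteins and early secretory coats. The median difference was close to 0 in each role, between -0.00278 and 0.00111.

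The 4 events of this list with the smallest p were not called. Those of Copg1 and Bin1 had differences of -0.069 and 0.036, under the 0.1 that a call requires. PSI of an alternative last exon of Copg1, a coat subunit of Golgi vesicles, was 0.868 ± 0.035 (SD, n = 6) under induction and 0.938 ± 0.013 (SD, n = 9) in controls (limma adjusted p = 0.111), and all 6 induced libraries lay below all controls. A 149-nt exon of Synj2, an inositol phosphatase that acts in uncoating (chromosome 17, 6036357 to 6036505), was at 0.370 ± 0.065 and 0.186 ± 0.041 (limma adjusted p = 0.146), with all 6 induced libraries above all controls. Dnm2 encodes a dynamin, which cuts the neck of forming vesicles, and its mutually exclusive exons were at 0.213 ± 0.061 and 0.090 ± 0.023 (limma adjusted p = 0.171), with 5 of 6 above all controls. A 93-nt exon of Bin1, which shapes membrane tubules, was at 0.045 ± 0.028 and 0.009 ± 0.003 (limma adjusted p = 0.184), with all 6 above all controls. Without week 6 induced replicate 1, Dnm2 and Synj2 were called, with limma adjusted p-values of 0.0109 and 0.0202. That setting raised the calls over all events from 2 to 40, so the shift was not particular to this list.

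The Ap1b1 exon was also compared with 5456 skipped exons of other genes whose PSI spanned at least 0.1. The 5 with the highest Pearson's r over the 15 libraries were exons of Ldb3 (r = 0.95), Wnk1 (0.95), Mbnl1 (0.946), 4833439L19Rik (0.940) and Synj2 (0.938). These libraries fall into induced and control groups, and the r within each group is given beside the pooled one. Over the 6 induced libraries it was 0.948 for the 186-nt exon of Ldb3, 0.968 for the 132-nt exon of Wnk1, 0.932 for the 54-nt exon of Mbnl1, 0.918 for the 107-nt exon of 4833439L19Rik and 0.800 for the 149-nt exon of Synj2. Over the 9 controls it lay between -0.073 for 4833439L19Rik and 0.612 for Wnk1. The exons were chosen for this likeness, so r is a description, and the libraries share age and muscle.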

How the data were processed

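The authors deposited 1 table of PSI fractions, per the file headers, for 15 libraries read as 100-base pairs, per the labels' protocols. The submitters' processing notes name TopHat and mm10, and the table's own name says MISO. No version, event annotation or read minimum is named there. Columns were matched to libraries by the identifier in each title. The table numbers the induced libraries of week 6 the other way round, and the titles were followed. It holds 0 columns of other samples. Gene IDs were named from a RefSeq table of GRCm38.p6. A further 4 events carry a member's symbol beside another gene ID and were left out. Inside Ap1b1 lay 2 events without a symbol, a 9-nt exon among them, and inside Trip10 lay 1 event under Gpr108. None of these was a member.

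Two-sided tests were made with limma 3.58.1 (R 4.3.3), using robust moderation and a trend of the variance, and Benjamini-Hochberg adjustment over the 31267 events with a value in all libraries. Its terms were the 6 combinations of week and induction, plus muscle. Dox controls were compared with no dox in a fit of condition, week and muscle. Calls were made at adjusted p below 0.05, with a minimum difference of 0.1 except in the F test. The fit was tested on simulated data. The labels name no animals, although the no-dox replicates of week 6 differ in sex and so came from different mice. Whether other replicates of the same arm and week did is not stated. The p-values therefore reflect only library-to-library spread, which may be partly technical. Alternatives were the logit scale, no trend or robust step, no muscle term, values in at least 12 libraries, control libraries alone, a filter on extreme PSI, a replicate block, each muscle or control arm alone, and each library left out. The number of libraries limits the precision. Members, lists and the naming rule were chosen with earlier results of these data known. Full values were given for the Ap1b1 exon, the event of largest difference per gene, called or non-overlapping events, and skipped exons with a control mean PSI of 0.05 to 0.95.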

Additional observations from a re-analysis of the deposited data

Results flagged for a closer look

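A single value stood far from the others of its group, in 22 groups examined, and chance gives about 1 in 20 groups. PSI of the alternative last exon of Cltb was 0.01 in week 6 induced replicate 1 and 0 in the other 5 induced libraries, a distance of 1 unit of the last decimal that is printed.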

How the results depend on the processing

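For the 21-nt exon of Ap1b1 every induced library lay above every control, so no choice of libraries could turn the difference. That its direction held in all 21 alternatives thus adds no support. The difference lay between 0.130 and 0.160 with any single library left out. It was 0.197 in quadriceps libraries alone, a move larger than the control SD of 0.023 and smaller than the induced SD of 0.057. Direction also held in 21 of 21 alternatives for the Trip10 exon, the Picalm first exon, the Tmed2 exon, the Cltb last exon and the Clta exon beside the 54-nt exon, and turned in 1 or more for the exons of Cltc, Snap23 and Picalm and the other Clta event. The counts of calls for muscle, age, dox and age variation among the 34 events stayed at 0 in every alternative run. For the other vesicle genes, leaving out 1 library gave 0 to 2 calls, with 2 without week 6 induced replicate 1 and 1, an alternative 3' splice site of Dnm1, without week 12 induced replicate 2. Over all events these settings gave 40 and 17 calls, beside 2 in the main fit. Same-numbered libraries did not deviate together over all events, with r of 0.010, -0.012 and 0.015 at 6, 12 and 20 weeks. These r include replicates of different muscles, so they do not exclude a pairing. With a replicate block the count was 0 for the other vesicle genes, and the Ap1b1 difference 0.158. Read depth per event is unknown. Standard errors of the age differences reached 0.107. In such events a difference would have to lie well above its standard error to be told from 0.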
